A study of Homo sapiens with 60 samples.

Results

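The genes described here encode the nuclear-encoded subunits of the mitochondrial respiratory chain and of ATP synthase. They were taken by symbol from a table of 60675 genes: symbols that start with NDUFA, NDUFB, NDUFC, NDUFS, NDUFV, UQCR, COX4 to COX8, ATP5F, ATP5M or ATP5P, and SDHA, SDHB, SDHC and SDHD. Assembly factors named NDUFAF were left out. Of 269 symbols that matched, 180 were not protein coding, mostly pseudogenes, and held 0.0886% of the matched counts. The 89 genes that remained divide into 37 of complex I, 4 of complex II, 9 of complex III, 19 of complex IV, 18 of complex V (ATP synthase) and 2 readthrough genes (ATP5MF-PTCD1 and NDUFC2-KCTD14) that stand in no complex. NDUFA4 and its paralog NDUFA4L2 were placed with complex IV. The rule uses symbols and no measured value, but it was set with earlier results of these data known.

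The RNA came from A549, a human lung carcinoma line grown in culture, after 24 h of treatment, in 60 libraries that form 20 groups of 3. By the sample labels controls received 0.1% DMSO, while the design text of the series gives a higher share. Wortmannin, a phosphoinositide 3-kinase inhibitor, served as the positive control at 10 µM. The other groups received hot-water extracts of medicinal plants at a high, a medium and a low dose. These were Zingiberis Rhizoma Recens (ZRR), Zingiberis Rhizoma (ZR), Pinelliae Tuber (PT) and Zizyphi Fructus (ZF) at 500, 100 and 20 µg/mL, Scutellariae Radix (SR) at 230, 46 and 9.2 µg/mL. For Coptidis Rhizoma (CR) the doses were 130, 26 and 5.2 µg/mL. The labels do not say that the 3 libraries of a group came from separate cultures, so the spread between them may be technical. Each p-value of the main fit rests on that spread pooled over the 20 groups, not on the compared groups alone. Vehicle and extract libraries differ in the first number of their sample codes, whose meaning the labels do not give. Wortmannin codes share that number with vehicle. Vehicle codes also carry a leading letter A, unexplained as well, that no treated library has. Against vehicle, the code (the letter for wortmannin, the letter and the number for extracts) and the treatment cannot be told apart. High and low doses of an extract share the first number.

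Electrons enter the respiratory chain through complex I from NADH and through complex II from succinate. They pass by way of ubiquinone, complex III and cytochrome c to complex IV, where oxygen is reduced, and the proton gradient built on the way drives ATP synthase. A small number of core subunits are encoded in mitochondrial DNA, while the genes described here are transcribed in the nucleus and their proteins are imported. Cultured carcinoma cells such as A549 make ATP by both glycolysis and this pathway.

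Libraries held 17420373 to 36479629 estimated counts, and the lowest correlation between libraries of a group was 0.982. A549 markers were high in vehicle, with KRT8 at 3267 CPM (counts scaled to library size) and AKR1B10 at 2827 CPM. The blood and fibroblast markers PTPRC, CD3E and DCN were at 0 there. Of 8 markers of blood, endothelium and fibroblasts, COL3A1 alone passed the filter on low counts, and their summed level stayed between 0.668 and 2.88 CPM in all 60 libraries. Of the 89 genes, 83 passed the filter and were tested, 81 of them in a complex. COX4I2, COX6A2, COX7A1, COX7B2, COX8C and ATP5MGL were not tested. Their products include the muscle forms of subunits 6A and 7A and the lung form of subunit 4. COX6A2, COX4I2, COX8C and ATP5MGL had no count in the vehicle libraries, and COX7A1 stood at 0.291, 0.118 and 0.103 CPM there.

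Levels between genes were compared in vehicle as CPM per kilobase of transcript. Complex IV genes had the highest median, 189 CPM per kilobase, followed by ATP synthase with 135, complex III with 63.3, complex I with 53.3 and complex II with 47. COX6B1, a complex IV subunit that faces the intermembrane space, reached 586.3 CPM per kilobase. ATP5F1B, the catalytic beta subunit of ATP synthase, reached 581.5. ATP5MF, a small membrane subunit, followed with 395, then COX6A1 with 367 and COX8A with 330. Among the tested members of a complex the lowest were paralogs of other subunit genes: COX6B2 at 0.439, NDUFA4L2 at 1.03 and UQCRHL at 2.23 CPM per kilobase. The readthrough gene NDUFC2-KCTD14 had 0 CPM in vehicle. Within complex I the range ran from 6.88 for NDUFV3 to 149.1 for NDUFB9. SDHC, a membrane anchor of complex II, had 10.7, a value that rests on an annotated transcript of 13566 bases. All 89 genes together took 0.857% ± 0.0391 (SD, n = 3) of the counts in vehicle.

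Most of these messages are short. The median transcript length was 878 bases for the tested members and 2474 bases for all tested genes, and 57.8% of the members were at most 1000 bases long against 16.1% of all tested genes. Libraries differed in how counts depended on length. In each library log2 CPM was regressed on log2 length over genes with a log2 CPM of at least 1, and the slope was centred on the mean of all 60. The members' median deviation from their own 60-library means followed that slope with a Pearson r of -0.97 and a Spearman rho of -0.951 over 60 libraries (two-sided permutation p = 1e-05 for each, the smallest value that 100000 resamples allow). Without the 2 libraries farthest from the median slope the values were -0.961 and -0.946. With each library taken relative to its own group's mean they were -0.981 and -0.971, again with a permutation p of 1e-05 each. These 4 p-values are equal, so adjustment over them leaves them as they are. Members and slope come from the same libraries, and the members are a small share of the genes behind the slope. Because most members are short, a negative relation follows from how the slope is defined. The p-values therefore show nothing particular to these genes.

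The spread within a group could be as wide as the spread between groups. In the 3 libraries of the low ZR dose the members' median deviation ran from -0.13 to 0.37 on the log2 scale, and their slopes ran from -0.142 to 0.0516. The lowest of all library medians, -0.22, belonged to wortmannin replicate 1. The highest, 0.37, belonged to replicate 3 of the low ZR dose. For 71 of 81 members the SD between group means was no larger than the SD within groups. The medians of these SDs were 0.11 and 0.15 on the log2 scale. Each group mean averages 3 libraries, while the SD within groups is that of single libraries. Averaging alone lowers the SD between group means, so the count of 71 does not show whether groups differ. No share over all genes stands beside it.

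**Figure D1:**
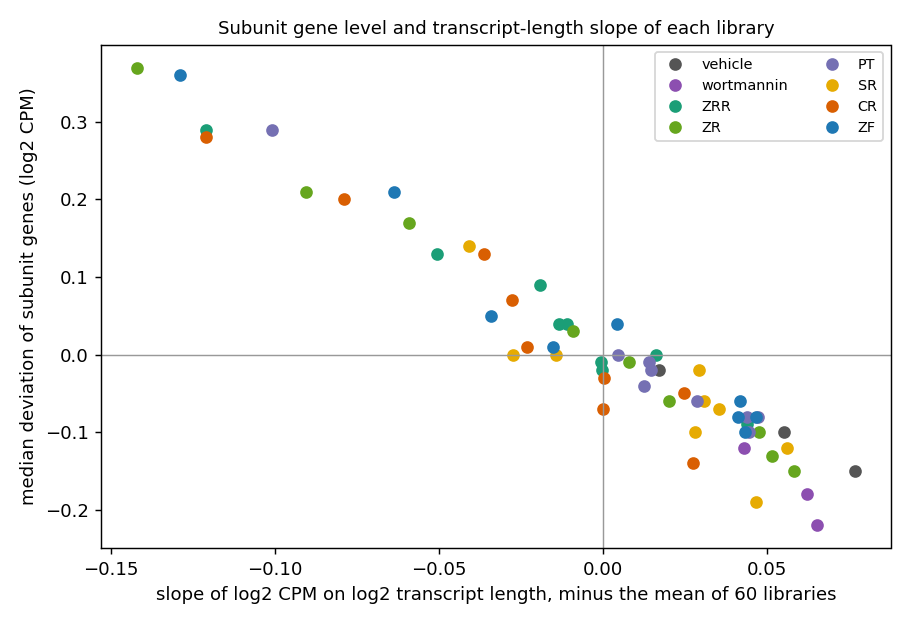
Each point is 1 of 60 libraries; the horizontal axis is its length slope (log2 CPM per log2 base) relative to the mean library, and the vertical axis is the median log2 deviation of the 81 members from their 60-library means. Libraries with a lower slope have a higher member median, with a Pearson r of -0.97.

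Relative to vehicle, the median member stood lowest in wortmannin, at -0.11 on the log2 scale, and highest in the low CR dose, at 0.25. Along the ZRR doses from low to high the median difference was 0.21, 0.19 and 0.06, and along the CR doses it was 0.25, 0.17 and 0.02. The SR doses gave 0.09, 0.02 and 0.00. ZR gave 0.13, 0.23 and 0.03. PT went the other way with 0.00, 0.06 and 0.17, and ZF showed no order with 0.14, 0.08 and 0.15. The 81 members' group means fell stepwise from low to high dose for 66 members (81.5%) with CR, for 57 (70.4%) with ZRR and for 30 (37%) with SR. The shares over all tested genes were 28.8%, 20.7% and 19.8%. With PT, 64 members (79%) climbed stepwise against 24.4% of all genes. Groups with higher member medians also had lower length slopes. The mean slope was 0.0497 in vehicle and 0.0568 in wortmannin, and -0.0602, -0.0274 and 0.00924 in the low, medium and high CR dose. Over all genes, the log2 difference between the low ZRR dose and vehicle had a Spearman correlation of -0.43 with transcript length. With the low CR dose the correlation was -0.379, and with wortmannin it was 0.022. Because earlier results of these data showed such correlations, low and medium doses are described against vehicle without a test. The tested high doses were not free of them. The correlation was -0.358 for the high ZF dose and -0.337 for the high PT dose, and -0.105 for the untested low PT dose.

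**Figure D2:**
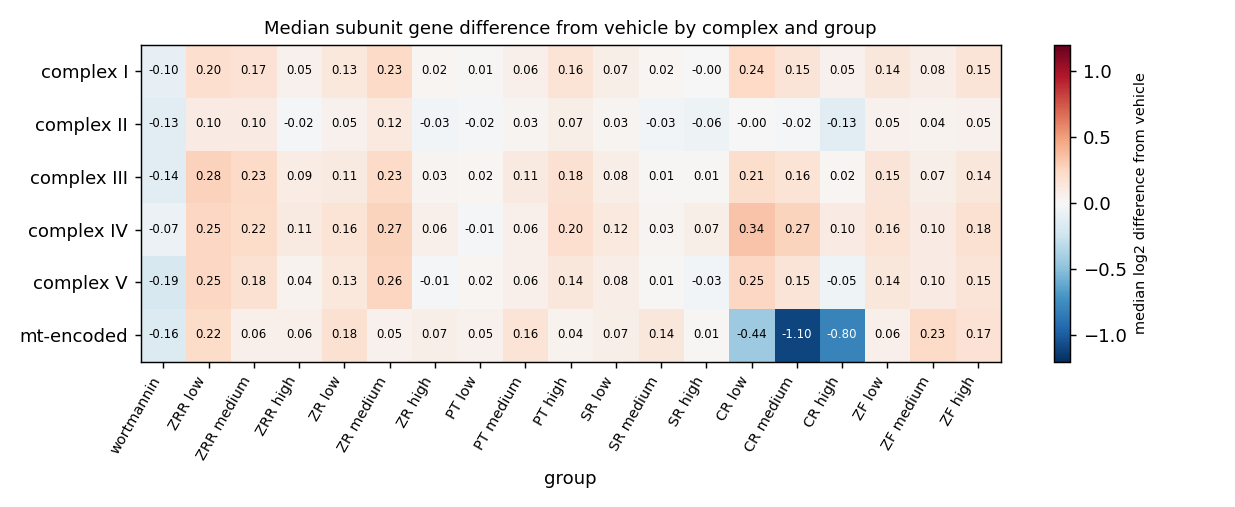
Median log2 difference from vehicle for the members of complexes I to V and for the 13 mitochondrially encoded subunit genes, in each of the 19 treated groups. Wortmannin has the lowest nuclear-encoded medians, shared with the high CR dose for complex II (-0.13 in each). The 3 CR doses have mitochondrially encoded medians of -0.44, -1.10 and -0.80 beside nuclear-encoded medians of 0.25, 0.17 and 0.02.

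Wortmannin against vehicle asks what the positive control did to these genes. ATP synthase subunits, parts of complexes I to III and the complex IV paralog NDUFA4L2 were lower. Of 83 members tested, 10 fell and 0 rose (edgeR quasi-likelihood test, adjusted p under 0.05 over all genes tested). That is 12.0% of the members. Over all genes 25.3% were called, 11.9% as lower and 13.4% as higher, so the share of lower calls among the members was near the background while no member was called higher. The unadjusted p was under 0.05 for 14 members, with no share of all genes at an unadjusted p beside it, and DESeq2 called 11. The median log2 fold change was -0.19 for ATP synthase, -0.14 for complex III, -0.13 for complex II, -0.10 for complex I and -0.07 for complex IV, beside 0.01 over all genes. In 31 of 81 members each wortmannin library was below each vehicle library, 38.3% against 21.2% of all genes, and in 2 the order was the opposite, 2.47% against 22.2%. In bulk RNA, fewer cells with a message and less message per cell cannot be told apart.

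ATP synthase gave the largest group of calls, 5 of 17. ATP5F1B measured 1043, 1067 and 1098 CPM in vehicle and 808, 828 and 800 CPM with wortmannin. The groups were far apart, and the log2 fold change was -0.40 ± 0.04 (SE), with an adjusted p of 1.09e-09 (edgeR). Its partner in the catalytic head, ATP5F1A, measured 357, 378 and 389 CPM in vehicle and 357, 343 and 334 CPM with wortmannin and did not pass the test. ATP5MC1, 1 of 3 genes for the c subunit of the rotor ring, measured 119, 127 and 139 CPM in vehicle and 86.5, 100 and 94.7 CPM with wortmannin. The groups did not overlap. ATP5MC1 fell by 0.45 on the log2 scale (SE 0.09, adjusted p 0.000247 with edgeR). ATP5MF, a membrane subunit, measured 115, 119 and 128 CPM against 75.2, 104 and 99.7 CPM. Its fold change of -0.37 ± 0.11 (edgeR adjusted p 0.00686) became -0.26 with an adjusted p of 0.0951 without wortmannin replicate 1, the lowest of the 6 libraries. With only the compared libraries it was -0.37 with an adjusted p of 0.112. ATP5MC3 fell by 0.33 on the log2 scale (SE 0.11, edgeR adjusted p 0.0179) and ATP5F1C, the gamma subunit of the central stalk, by 0.23 (SE 0.08, adjusted p 0.0363). ATP5MC3 lost the call without vehicle replicate 2 (adjusted p 0.0501), vehicle replicate 3 (0.0814) or wortmannin replicate 3 (0.0791). ATP5F1C lost it without any vehicle library or wortmannin replicate 1 or 3, with adjusted p from 0.0645 to 0.136.

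In complex I, NDUFA9, an accessory subunit near the ubiquinone site, measured 94.8, 89.9 and 95 CPM in vehicle and 72.4, 78.7 and 75 CPM with wortmannin. It fell by 0.31 on the log2 scale (SE 0.07, edgeR adjusted p 0.000978), and with an offset for length the adjusted p was 0.138. The core subunit NDUFS1, which carries iron-sulfur clusters, measured 129, 130 and 120 CPM against 112, 114 and 119 CPM. This small difference of -0.14 ± 0.05 (edgeR adjusted p 0.0211) lost the call without vehicle replicate 1 (0.0682) or 2 (0.0632), with no filter on low counts (0.167) and with a length offset (0.0607). NDUFV1, the core subunit that binds NADH, did not pass the test and overlapped between groups. In complex II the iron-sulfur subunit SDHB measured 59.3, 59.3 and 64.9 CPM in vehicle and 52.9, 47.6 and 49.0 CPM with wortmannin. Its difference of -0.29 ± 0.10 (edgeR adjusted p 0.0296) lost the call when any vehicle library or wortmannin replicate 2 or 3 was left out, with adjusted p from 0.0509 to 0.124. SDHA, the flavoprotein that oxidises succinate, measured 111, 115 and 111 CPM against 120, 108 and 105 CPM, with no call. In complex III the core protein UQCRC2 measured 163, 165 and 169 CPM against 142, 148 and 146 CPM. It fell by 0.19 on the log2 scale (SE 0.04, edgeR adjusted p 6.7e-05) and was called under all 14 alternatives run.

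**Figure D3:**
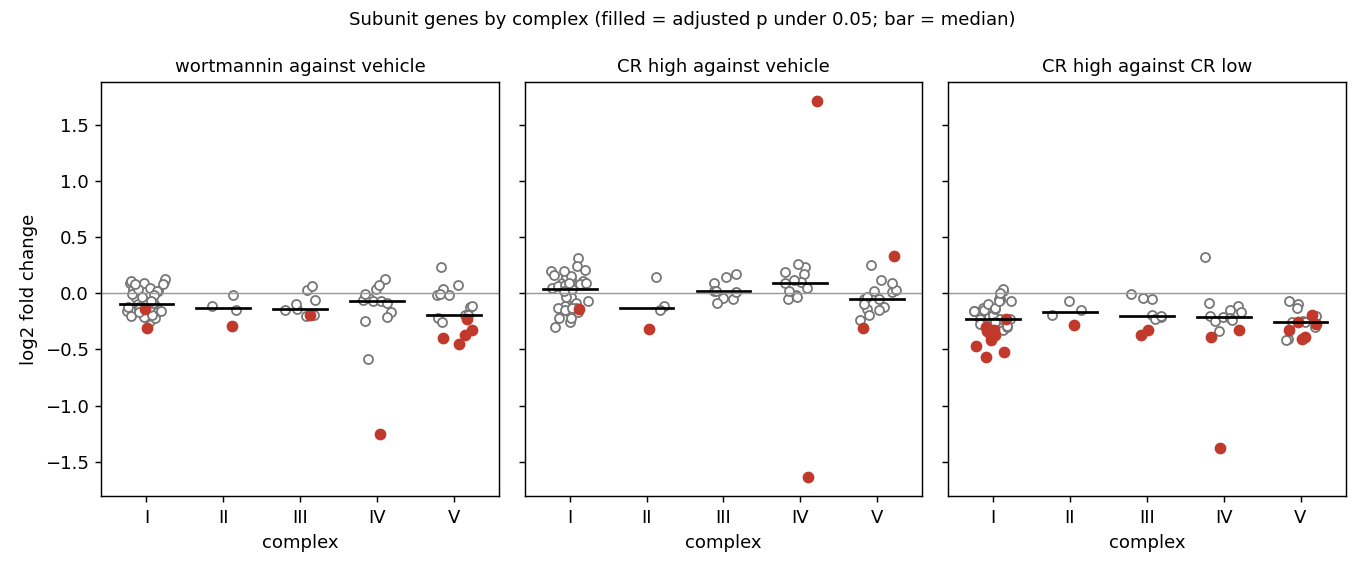
Log2 fold change of each tested member by complex, in wortmannin against vehicle, the high CR dose against vehicle and the high against the low CR dose. Filled red points passed an edgeR adjusted p of 0.05 and bars are medians; in wortmannin against vehicle the medians run from -0.07 (complex IV) to -0.19 (ATP synthase), and in the high against the low CR dose 78 of 81 members lie below 0.

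With the length slope as a covariate, 35 members were called for wortmannin, 30 of them lower, which is 36.1% of the members against 19.8% of all genes. With a length offset 24 were called, 23 lower, 27.7% against 15.2%. The members' median moved from -0.11 to -0.09 with the covariate. In members of at most 1000 bases the median was -0.07 against 0.03 for other genes of that length, and in members of 1 to 2 kilobases it was -0.13 against 0.00. The number of calls was also sensitive to single libraries and stood at 6 without vehicle replicate 2.

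Genes that serve the same complexes were examined from lists, beside the 11.9% of all genes called lower and the 13.4% called higher. Of 17 complex I assembly factors 4 fell and 0 rose with wortmannin, of 25 for complex IV 5 fell and 1 rose, of 6 for complex III 1 fell, and none of the 4 for complex II or the 4 for ATP synthase passed the edgeR test (0 and 1 at an unadjusted p under 0.05, 0 called by DESeq2). COX10, which makes heme for complex IV, fell by 0.44 on the log2 scale (edgeR adjusted p 7.92e-06), and LRPPRC, which stabilises mitochondrial messages, by 0.24 (2.37e-06). SURF1 rose by 0.32 (0.043), where DESeq2 called 0 of this list higher. Cytochrome c (CYCS) fell by 0.44 (SE 0.11, adjusted p 0.00165). Of 11 tested regulators of mitochondrial gene expression, GABPB1, NRF1, PPARGC1B and TFB2M fell. Among 13 citrate cycle genes 6 fell, with CS and IDH3A each at -0.25. None of the 13 mitochondrially encoded subunit genes passed the edgeR test (1 at an unadjusted p under 0.05, 0 called by DESeq2), with a median of -0.16. Mitochondrial ribosomal protein genes had 27 of 78 lower and 0 higher, with a median of -0.19, while cytosolic ribosomal protein genes had 4 of 80 lower and a median of 0.08.

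Upstream sequence is shown for 3 members called lower in different comparisons: NDUFA9 and ATP5MC1 with wortmannin, and SDHA at the high against the low CR dose, described next. They were chosen after their values were seen, for stretches that lie before the gene start in both RefSeq and GENCODE 29. Windows of 150 bases before each RefSeq start (GRCh38.p14) were searched on both strands. Of the 89 members, 70 had a window, 83 windows in all. The NRF1 motif (GCGC, then A, any base and GCGC again) was in 14 of these (16.9%) and in 4.29% of 35116 windows of all genes. The ETS core CCGGAAG was in 17 (20.5%, against 6.85%), and the YY1 motif AAGATGGC in 1 (1.2%, against 0.814%). The window of NDUFA9 held 1 NRF1 match, that of SDHA held 3, of which the first is printed, and that of ATP5MC1 held none. A match of letters is a description and no measure of binding. The printed stretches run 5′ to 3′ on the plus strand at chr12:4648964-4649094, chr5:218170-218240 and chr17:48892637-48892764, and capitals mark the NRF1 match. For NDUFA9 the match is on the minus strand, so the capitals show its reverse complement.
NDUFA9: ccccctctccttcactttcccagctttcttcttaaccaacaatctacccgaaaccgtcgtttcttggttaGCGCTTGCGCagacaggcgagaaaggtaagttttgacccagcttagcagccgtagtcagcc
SDHA: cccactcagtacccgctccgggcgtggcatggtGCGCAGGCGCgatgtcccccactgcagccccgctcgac
ATP5MC1: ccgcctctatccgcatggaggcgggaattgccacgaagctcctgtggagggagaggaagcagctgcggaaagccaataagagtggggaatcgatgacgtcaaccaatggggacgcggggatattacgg

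The high against the low CR dose asks what changed between the ends of the dose range of 1 extract. Subunit messages of all 5 complexes were lower at the high dose. Of 83 members 23 fell and 0 rose (edgeR), 27.7% of the members. Over all genes 25.4% were called, 12.3% as lower and 13.1% as higher. The unadjusted p was under 0.05 for 38 members, with no share of all genes at an unadjusted p beside it, and DESeq2 called 28. By complex, 11 of 37 fell in complex I, 1 of 4 in II, 2 of 9 in III, 3 of 14 in IV and 6 of 17 in ATP synthase. The median was -0.23, and 78 of 81 members were below 0. In 48 members each high-dose library was below each low-dose library, 59.3% against 19.1% of all genes, and in 1 the order was the opposite, 1.23% against 21.9%. Leaving out replicate 3 of the low dose left 5 calls, and leaving out replicate 2 of the low dose gave 30.

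Length moved with this comparison too, since the mean slope was -0.0602 at the low and 0.00924 at the high dose. With the slope as a covariate the members' median was -0.03, and 22 were called, 19 of them lower, 22.9% against 15.1% of all genes. With a length offset the median was -0.14 and 31 were called, 37.3% being lower against 14.5%. Without the 5 libraries of lowest slope 20 were called, 24.1% against 12.1%. In members of at most 1000 bases the median was -0.24, and -0.06 in other genes of that length.

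In complex I the called genes were accessory subunits of the membrane and peripheral arms and 2 core subunits, NDUFS3 and NDUFV2. NDUFB3 measured 46.5, 43.9 and 52.8 CPM at the low dose and 32.9, 32.3 and 35.0 CPM at the high dose. The groups were well apart. NDUFB3 fell by 0.52 (SE 0.12, adjusted p 0.000629 with edgeR), and by 0.33 with the slope as a covariate (adjusted p 1.74e-07). NDUFB1 measured 62.7, 56.0 and 75.1 CPM against 41.2, 38.3 and 50.9 CPM, and NDUFA2 42.4, 35.0 and 42.9 CPM against 28.4, 28.0 and 30.5 CPM. Both fell, by 0.57 (SE 0.16, edgeR adjusted p 0.00735) and 0.47 (SE 0.14, adjusted p 0.0122). NDUFB1 lost the call without high-dose replicate 2 (0.0567) or low-dose replicate 3 (0.0764). NDUFA2 lost it without low-dose replicate 1 or high-dose replicate 2 (0.0506 each) or low-dose replicate 3 (0.0655).

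In complex II, SDHA measured 107, 105 and 115 CPM at the low and 90.6, 89.8 and 89.2 CPM at the high dose. The high-dose libraries lay close together and below all low-dose libraries. SDHA fell by 0.28 on the log2 scale (SE 0.05, edgeR adjusted p 3.7e-05) and by 0.21 with the slope as a covariate (6.92e-07), and kept the call in all 14 alternatives. SDHA has 4 close copies in the table, which held 11.7% of the joint count, so part of its signal could be split between them by the counting. In complex III the Rieske protein UQCRFS1 measured 310, 297 and 339 CPM against 259, 214 and 261 CPM, a difference of -0.37 ± 0.12 (edgeR adjusted p 0.0233). It lost the call without high-dose replicate 2 (0.154), low-dose replicate 3 (0.117) or the 5 libraries of lowest slope (0.051). In complex IV, COX6B1 measured 337, 329 and 366 CPM at the low and 283, 253 and 286 CPM at the high dose, and COX7B, a small membrane subunit, 122, 120 and 137 CPM against 100, 87.6 and 101 CPM. The dose groups did not overlap for either gene. COX6B1 fell by 0.33 (SE 0.11, adjusted p 0.0237) and COX7B by 0.39 (SE 0.14, adjusted p 0.0324). Both lost the call without high-dose replicate 2, at 0.121 and 0.143, or low-dose replicate 3, at 0.116 and 0.147.

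ATP synthase members from the rotor, the stalks, the catalytic head and the membrane part fell. ATP5MC3 measured 228, 199 and 249 CPM at the low and 177, 166 and 166 CPM at the high dose, with -0.41 ± 0.11 (edgeR adjusted p 0.00332) and -0.23 (1.47e-06) with the slope as a covariate. ATP5MF measured 142, 137 and 157 CPM against 109, 106 and 118 CPM, with -0.39 ± 0.10 (adjusted p 0.00404). ATP5F1C measured 166, 169 and 183 CPM against 141, 145 and 145 CPM. It fell by 0.26 (SE 0.08, edgeR adjusted p 0.0133), a call lost without low-dose replicate 3 (0.0898). ATP5PF of the peripheral stalk, ATP5MG and ATP5F1A fell as well, by 0.33, 0.27 and 0.19. Each of the 3 lost the call without high-dose replicate 2 or low-dose replicate 3 (adjusted p from 0.0807 to 0.278), and ATP5MG and ATP5F1A also without replicate 1 of either dose (0.0776 to 0.108). With the slope as a covariate ATP5F1A was at -0.08 with an adjusted p of 0.0777. Around the subunits, beside the 12.3% of all genes called lower, 5 of 17 complex I assembly factors fell and 0 rose between the CR doses (6 at an unadjusted p under 0.05, 5 called by DESeq2), and for complex IV 5 of 25 fell and 2 rose. Of 13 citrate cycle genes 5 fell and 1 rose, with FH, which makes malate from fumarate, at -0.30 (edgeR adjusted p 4.11e-05). Mitochondrial ribosomal protein genes had 9 of 78 lower, and their median of -0.14 became -0.01 with the slope as a covariate.

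Against vehicle the high CR dose showed few member calls, 6 of 83 or 7.23%, while 35.1% of all genes were called, 18.5% as higher and 16.7% as lower. The unadjusted p was under 0.05 for 14 members, with no share of all genes at an unadjusted p beside it, and DESeq2 called 7. NDUFA4L2 and ATP5MC2 rose, and SDHA, COX6B2, ATP5MC3 and NDUFS1 fell. SDHA was at 111, 115 and 111 CPM in vehicle, above the 3 high-dose libraries given above. It fell by 0.32 (SE 0.05, edgeR adjusted p 1.46e-06) under all 14 alternatives run. Its copy SDHAP1 moved from 7.33 ± 0.71 to 5.06 ± 0.738 CPM (SD, n = 3). SDHAP4, the most counted copy, moved from 8.26 ± 0.906 to 6.27 ± 0.313 CPM. At the low CR dose SDHAP1 was at 5.8 ± 1.14 and SDHAP4 at 6.04 ± 1.74 CPM. The other complex II subunits did not pass the test, with log2 fold changes of 0.14 for SDHB, -0.11 for SDHC and -0.15 for SDHD. NDUFS1 measured 114, 114 and 117 CPM and fell by 0.14 (adjusted p 0.0149), a call lost without vehicle replicate 1 (0.0634) or 2 (0.0593) and with no filter on low counts (0.199). NDUFS1 had a lower mean than vehicle in all 19 treated groups, by -0.05 to -0.18 on the log2 scale. With the slope as a covariate 40 members were called, 35 of them lower, 42.2% against 22.0% of all genes called lower. With a length offset 28 were called, 24 of them lower, 28.9% against 19.6% of all genes. Of the A549 markers 4 fell and 2 rose at this dose, with KRT8 at -0.68 and KRT18 at -0.57, and their summed level was 14803 to 15091 CPM against 16685 to 17290 CPM in vehicle. Their part in the result was not tested.

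Most mitochondrially encoded subunit genes fell at the high CR dose. Of 13, 12 fell against vehicle (edgeR), where 16.7% of all genes were called lower. The median log2 fold change was -0.80 beside 0.02 for the nuclear-encoded members, and MT-CO1 fell by 1.08. The difference between the sets was not tested. The mitochondrially encoded genes took 3.93% ± 0.219 of the counts at the high CR dose and 7.26% ± 0.325 in vehicle (SD, n = 3). The medium dose had a lower median difference from vehicle, -1.10, and a share of 4.81% ± 0.582. At the low dose the 13 genes split. There 8 of them had a mean below vehicle (median -0.44), while the 13 together took 8.66% ± 2.05 of the counts. MT-ND5, MT-ND6 and MT-CYB, which are neighbours at the end of the mitochondrial coding region, were far above vehicle, while MT-CO3 and MT-ND4L were among those below it. MT-ND5 measured 24080, 18390 and 15800 CPM at the low CR dose, 7456, 5933 and 5016 CPM at the medium dose, 1997, 2139 and 1647 CPM at the high dose, and 3605, 3366 and 3347 CPM in vehicle. MT-CYB measured 17550, 16620 and 14200 CPM at the low dose, 3154, 3153 and 2915 CPM at the high dose and 4556, 4295 and 5343 CPM in vehicle. From low to high dose MT-ND5 fell by 3.33, MT-ND6 by 2.81 and MT-CYB by 2.39 on the log2 scale (edgeR adjusted p at most 2.99e-16). MT-ND6 lies on the opposite strand, and the sources do not say whether the counting used strand. No nuclear-encoded member of complex I or III had a log2 difference of that size. Outside the subunits, FH and CS of the citrate cycle fell against vehicle by 0.34 and 0.16, NRF1 and PPARGC1B by 0.33 and 0.39, while ESRRA rose by 0.29 and CYC1, the heme protein of complex III that the symbol rule does not take, rose by 0.28. Cytosolic ribosomal protein genes had 51 of 80 higher, beside 18.5% of all genes. Their median was 0.33, and 0.21 with the slope as a covariate.

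NDUFA4L2 varied more across the groups than any other member. NDUFA4 is a subunit of complex IV, and NDUFA4L2 is its paralog, known to be induced in hypoxia. NDUFA4L2 lies at chr12:57234903-57240715 on the minus strand with 4 exons (GRCh38, GENCODE 29). Its SD between group means was 0.66 on the log2 scale against 0.23 within groups, and its group means spanned 2.82. The highest means were 3.99 ± 0.409 CPM at the high CR dose, 3.72 ± 0.144 at the medium CR dose, 3.40 ± 0.434 at the high SR dose and 3.19 ± 0.298 at the low CR dose (SD, n = 3). Neighbours in that order overlapped in their libraries. The high ZR and ZRR doses followed with 2.17 and 2.15 CPM, vehicle stood at 1.21 ± 0.146 and wortmannin was lowest at 0.503 ± 0.133. All 12 libraries of the 3 CR doses and the high SR dose had at least 2.87 CPM, and the other 48 had at most 2.45 CPM. The gene is low, with 8 to 129 counts a library (median 37).

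With the high CR dose NDUFA4L2 measured 4.39, 3.57 and 4.03 CPM, against 1.37, 1.18 and 1.08 CPM in vehicle. It rose by 1.71 on the log2 scale (SE 0.18, edgeR adjusted p 1.15e-10). With the low CR dose it measured 2.87, 3.46 and 3.25 CPM, and high against low did not pass the test (0.32 ± 0.16, adjusted p 0.147). The order with SR was different: 1.31, 1.06 and 1.65 CPM at the low, 1.55, 1.11 and 1.69 CPM at the medium and 3.39, 2.97 and 3.84 CPM at the high dose. The high SR dose stood apart from both lower doses and rose by 1.48 against vehicle (SE 0.19, adjusted p 2.68e-08) and by 1.33 against the low dose (SE 0.19, adjusted p 2.77e-07, edgeR). With wortmannin it measured 0.58, 0.35 and 0.578 CPM and fell by 1.25 (SE 0.25, edgeR adjusted p 0.000134). These 4 calls held under all 14 alternatives run for each. NDUFA4 itself measured 159, 158 and 164 CPM in vehicle and 158, 161 and 169 CPM at the high CR dose, a log2 difference of 0.02 that did not pass (adjusted p 0.902 with edgeR).

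**Figure D4:**
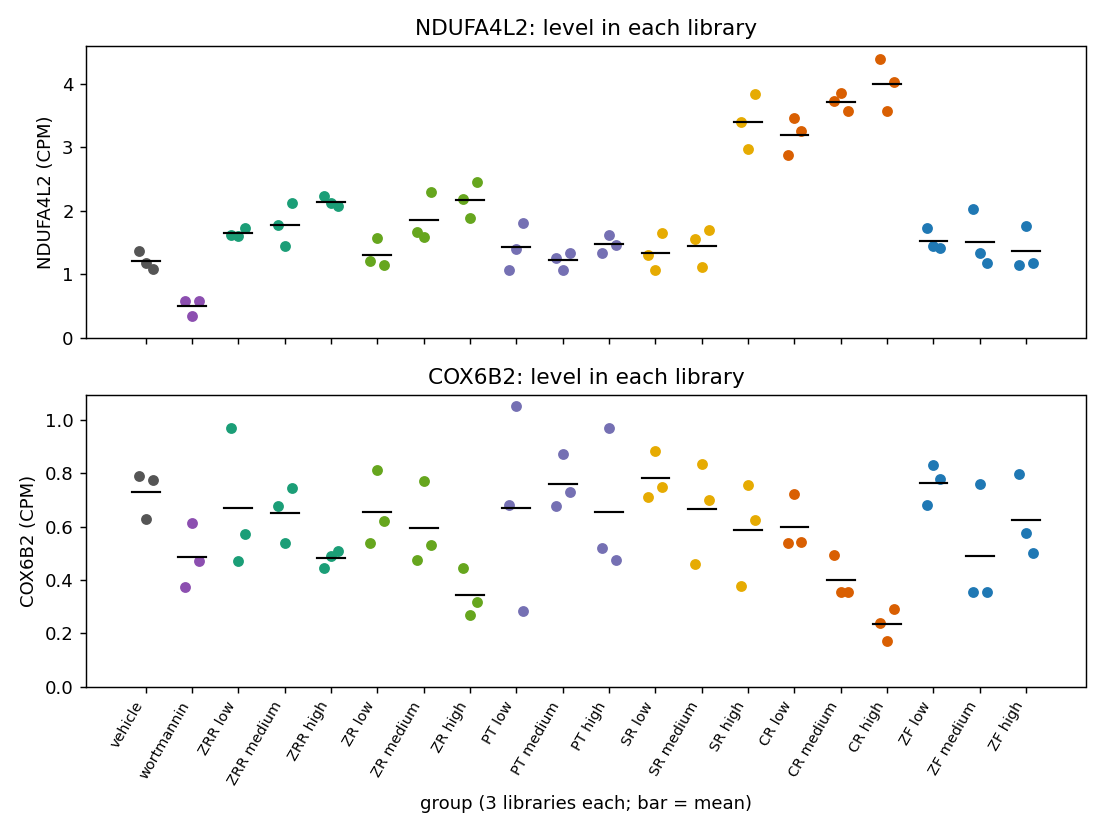
NDUFA4L2 and COX6B2 in CPM in each of the 60 libraries, by group. NDUFA4L2 is at 2.87 CPM or more in the libraries of the 3 CR doses and the high SR dose and at 2.45 CPM or less elsewhere, and COX6B2 is lowest at the high CR dose.

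ZR and ZRR gave 1 member call in each comparison, and more under some alternatives. Without the filter on low counts 17 were called for high against low ZRR (19.3%, against 2.48% of all genes) and 10 for ZR (11.4%, against 2.4%). With the slope as a covariate 7 were called against vehicle for ZRR (8.43%, against 9.44%) and 9 for ZR (10.8%, against 12.1%). Against vehicle the high ZR dose had 1 of 83 members called, 1.2% beside 5.35% of all genes, and the high ZRR dose 1, beside 4.03%. Both calls were NDUFA4L2. It measured 2.18, 1.88 and 2.45 CPM with the high ZR dose, a rise of 0.84 (SE 0.20, edgeR adjusted p 0.00495) that lost the call without replicate 3 of that dose (0.0533). With the high ZRR dose it measured 2.23, 2.12 and 2.08 CPM, a rise of 0.82 (SE 0.20, adjusted p 0.00994) lost without vehicle replicate 2 (0.0603) or 3 (0.0538) or replicate 1 of that dose (0.0507). High against low ZR gave 1 call (4.64% of all genes), NDUFA4L2 at 0.73 (SE 0.20, adjusted p 0.0194), which did not hold without replicate 1 or 3 of either dose (0.0609 to 0.131). It was also lost with no filter (0.0555), without the 5 libraries of lowest slope (0.0957) and with only the compared libraries (0.268). High against low ZRR gave 1 call (4.17% of all genes), UQCRHL, a near copy of the complex III hinge protein gene UQCRH. UQCRHL measured 7.75, 6.98 and 7.4 CPM at the low and 5.51, 5.78 and 4.89 CPM at the high dose, and fell by 0.46 (SE 0.13, edgeR adjusted p 0.0305). The call was lost without replicate 1 or 3 of the high dose or any replicate of the low dose, with adjusted p from 0.0623 to 0.206, and with only the compared libraries (0.113). Reads of UQCRH and UQCRHL may be split between them by the counting.

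The high SR dose against vehicle gave 4 member calls, 4.82% beside 23.9% of all genes. The unadjusted p was under 0.05 for 7 members, with no share of all genes at an unadjusted p beside it, and DESeq2 called 4. SDHA measured 96.2, 93.9 and 101 CPM, below the 3 vehicle libraries, and fell by 0.21 (SE 0.05, edgeR adjusted p 0.00164) under all 14 alternatives. NDUFS1 measured 116, 116 and 112 CPM and fell by 0.14 (adjusted p 0.0185), a call lost without vehicle replicate 1 (0.11) or 2 (0.0989) or replicate 3 of the dose (0.0991), and with no filter on low counts (0.203). UQCRC2 measured 154, 147 and 161 CPM and fell by 0.10 (SE 0.04, adjusted p 0.0311), a call lost without any vehicle library or replicate 1 or 2 of the dose (0.0942 to 0.352), with no filter (0.501) and with only the compared libraries (0.0876). Against the low SR dose 3 members were called, 3.61% beside 20.4% of all genes. SDHA fell there by 0.19 (SE 0.05, edgeR adjusted p 0.00529) from 115, 110 and 108 CPM, and lost the call without low-dose replicate 1 (0.0755) or high-dose replicate 2 (0.0653). UQCRC2 fell by 0.10 (adjusted p 0.0385) with overlapping libraries, a call lost without replicate 1 or 2 of the high dose or 1 or 3 of the low dose (0.07 to 0.512), with no filter (0.535) and with only the compared libraries (0.218). With the slope as a covariate 32 members were called against vehicle, 38.6% beside 33.1% of all genes, and 30 of them were lower, 36.1% beside 15.8%. Against the low dose 26 were called, 31.3% beside 31.8%, with 27.7% lower beside 15.4%.

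PT and ZF gave no member call with edgeR and its filter on low counts. Without the filter edgeR called 33 of 88 members for the high PT dose against vehicle (37.5%, against 3.65% of all genes), 25 against the low PT dose (28.4%, against 1.98%) and 22 for the high ZF dose against vehicle (25%, against 1.29%). With the slope as a covariate or a length offset 1 was called for PT against vehicle. In what follows the shares of all genes are edgeR calls at an adjusted p. No share of all genes at an unadjusted p was taken, so the unadjusted counts show no excess. For the high PT dose against vehicle (1.4% of all genes called) the unadjusted p was under 0.05 for 19 members, and 1 was called by DESeq2. Against the low PT dose (0.549% of all genes) these counts were 11 and 0. For the high ZF dose against vehicle (0.00584% of all genes) they were 14 and 0, and against the low ZF dose (0% of all genes) both were 0. Differences between dose effects were tested within the first number of the sample codes. CR against ZF gave 3 member calls, 3.61% beside 11.4% of all genes, SR against PT gave 5, 6.02% beside 11.3%, and ZRR against ZR gave 0 beside 0.14%, with 1 member at an unadjusted p under 0.05 and 0 called by DESeq2. The doses in µg/mL differ in the first and second of these pairs.

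Isoform sets were followed by library. COX6B2, the testis form of COX6B1 (chr19:55349306-55354814, minus strand, 5 exons), measured 0.789, 0.627 and 0.775 CPM in vehicle. It was at 0.538, 0.721 and 0.541 CPM at the low, 0.492, 0.354 and 0.353 CPM at the medium and 0.238, 0.172 and 0.291 CPM at the high CR dose. The high dose was below all vehicle and low-dose libraries, and COX6B2 fell by 1.64 against vehicle (SE 0.37, edgeR adjusted p 0.000398) and by 1.38 against the low dose (SE 0.38, adjusted p 0.00527). These values rest on 5 to 27 counts a library (median 13). COX6B1 measured 250, 272 and 312 CPM in vehicle and 283, 253 and 286 CPM at the high CR dose. COX4I1, COX6A1, COX7A2, COX7A2L and COX8A passed no test against vehicle with wortmannin or the high CR dose.

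The 3 genes of the c subunit, ATP5MC1, ATP5MC2 and ATP5MC3, encode the same mature protein behind different import sequences. In vehicle ATP5MC2 measured 241, 254 and 268 CPM, ATP5MC3 198, 211 and 222 CPM and ATP5MC1 119, 127 and 139 CPM. With wortmannin ATP5MC1 and ATP5MC3 fell, while ATP5MC2 measured 243, 286 and 271 CPM and did not pass the test (0.07 ± 0.12, edgeR adjusted p 0.736). At the high CR dose ATP5MC2 measured 313, 309 and 335 CPM and rose by 0.33 against vehicle (SE 0.12, edgeR adjusted p 0.0308). The call was lost without any 1 of vehicle replicate 1 or 2 or the 3 high-dose replicates, with adjusted p from 0.0589 to 0.12. ATP5MC3 fell by 0.31 (SE 0.11, adjusted p 0.0201), a call lost without vehicle replicate 2 (0.0569) or 3 (0.0944) or high-dose replicate 2 (0.0659) or 3 (0.0726). ATP5MC1 measured 124, 114 and 134 CPM there and did not pass (-0.05, adjusted p 0.717). Differences between the 3 genes were not tested.

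**Figure D5:**
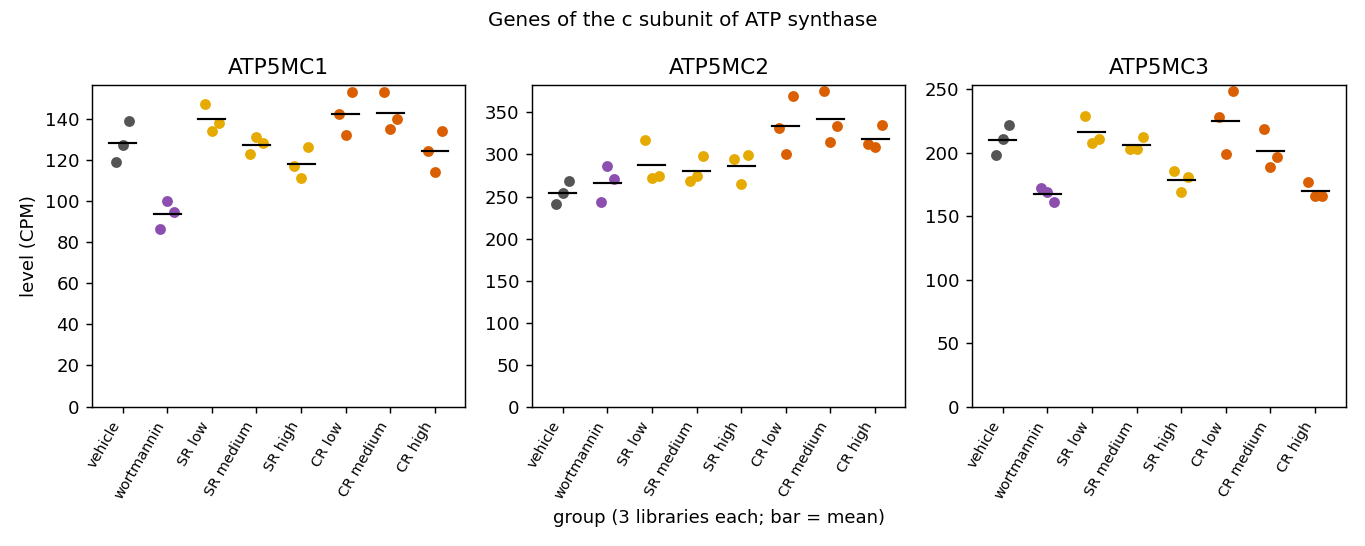
ATP5MC1, ATP5MC2 and ATP5MC3 in CPM by library in vehicle, wortmannin and the SR and CR doses. With wortmannin ATP5MC1 (86.5 to 100 CPM) and ATP5MC3 (161 to 172 CPM) lie below all vehicle libraries, and at the high CR dose ATP5MC2 (309 to 335 CPM) lies above them. The ATP5MC2 mean is above vehicle at the low and medium CR doses too, by 0.39 and 0.42 on the log2 scale.

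Some members hardly varied over the 20 groups. NDUFA10 and NDUFS1 had SDs between group means of 0.03 and 0.04 on the log2 scale, and the range of group means was 0.13 for NDUFA10. The median range over the 81 members was 0.40, and NDUFA4L2 and COX6B2 were the 2 with a range over 1. Wortmannin was the lowest group for 41 of 81 members, the high CR dose for 16 and vehicle for 12. The low CR dose was the highest group for 27, the medium ZR dose for 17 and the low ZRR dose for 16. No share over all genes stands beside these counts. Mean length slopes were highest in wortmannin (0.0568) and vehicle (0.0497). They were lowest in the low CR (-0.0602), medium ZR (-0.053) and low ZRR dose (-0.0393), and 0.00924 in the high CR dose.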

How the data were processed

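The authors deposited 1 table of estimated counts per gene for 269 libraries; the 60 columns of this series were used and 209 were not. Per the labels' protocols, mRNA libraries were made with a directional kit and sequenced paired-end. Per the submitters' processing notes, the tools were RSEM 1.3.3, STAR 2.7.3a, Trim Galore 0.6.5 and FastQC 0.11.9, with GRCh38/hg38. The sources do not give their settings. Rounding to whole counts came first. Of the gene IDs, 41209 took their symbol from a current name table and 15846 from GENCODE 29. The 3620 IDs without a symbol held 0.0579% of the counts.

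Genes were filtered by edgeR 4.0.16 (filterByExpr by group), scaled by TMM and tested with its quasi-likelihood test (R 4.3.3), 1 coefficient for each of 20 groups, with 40 residual degrees of freedom. Adjusted p-values are Benjamini-Hochberg over all 17129 genes tested, with calls at 0.05. The common biological coefficient of variation was 7.04%. CPM uses TMM sizes, and log2 CPM a prior count of 2. Transcript length is the median over a gene's principal transcripts in GENCODE 29, known for 99.3% of tested genes. Standard errors are the log2 fold change divided by the square root of F. There are 16 comparisons: the high dose of each extract and wortmannin against vehicle, high against low dose, and 3 differences of dose effects. The fit was also run on simulated counts. These held no length slope, so that run does not measure how the fit handles the length dependence described above, and its outcome is not reported here. Alternatives were DESeq2 1.42.0 and its size factors, no filter, only the compared libraries, a replicate block, the length slope as a covariate, a length offset, and leaving out single libraries. Leaving out the 5 libraries of lowest length slope was added after the data were seen. Totals of 17420373 to 36479629 estimated counts a library set the precision, and genes of few counts have wide errors.

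Members, lists and comparisons were chosen with earlier results of these data known. Values by library are given for isoform sets, core subunits, and up to 3 called members of each complex with the smallest p among those also called with the length covariate and without overlap of libraries. Low and medium doses were not tested against vehicle.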

Additional observations from a re-analysis of the deposited data

Results flagged for a closer look

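Dose effects (high minus low) differed between extracts for 8 results, each tested as a difference of differences with edgeR and adjusted over all genes. The paired extracts share the first number of their sample codes, and their doses in µg/mL differ. CR against ZF gave SDHA at -0.25 (SE 0.07, adjusted p 0.0153; dose effects -0.28 and -0.03), NDUFB3 at -0.54 (SE 0.16, adjusted p 0.0212; -0.52 and 0.03) and ATP5MC3 at -0.47 (SE 0.15, adjusted p 0.0309; -0.41 and 0.07). Without the 5 libraries of lowest length slope no member was called there, with SDHA at -0.14 (adjusted p 0.187), NDUFB3 at -0.30 (0.0737) and ATP5MC3 at -0.26 (0.116). With only the compared libraries none of the 3 passed (0.135, 0.0935 and 0.116), and SDHA did not pass with no filter on low counts (0.101). Over all alternatives run, counting single libraries left out, ATP5MC3 lost the call in 9, and SDHA and NDUFB3 in 6 each.

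SR against PT gave NDUFA4L2 at 1.29 (SE 0.27, adjusted p 0.000757; dose effects 1.33 and 0.04), which kept its call in all 20 alternatives run. SDHA was at -0.27 (SE 0.07, adjusted p 0.00956; -0.19 and 0.08) and ATP5MC3 at -0.50 (SE 0.15, adjusted p 0.0212; -0.27 and 0.23). UQCRHL was at -0.59 (SE 0.19, adjusted p 0.0314; -0.14 and 0.45) and UQCRFS1 at -0.51 (SE 0.17, adjusted p 0.0469; -0.28 and 0.23). Without PT high-dose replicate 2 these 4 lost the call, with adjusted p of 0.0672 for SDHA, 0.127 for ATP5MC3, 0.12 for UQCRHL and 0.207 for UQCRFS1. With no filter SDHA (0.0653) and UQCRHL (0.054) did not pass. UQCRFS1 did not pass with a length offset (0.0588), with only the compared libraries (0.119) or without the 5 libraries of lowest slope (0.111). Of the 20 alternatives run, counting single libraries left out, UQCRFS1 lost the call in 11, UQCRHL in 10, and SDHA and ATP5MC3 in 4 each. With the length slope as a covariate all 8 differences passed the test with the same sign. The 7 negative ones ran from -0.52 for UQCRHL (adjusted p 0.0239) to -0.18 for SDHA in CR against ZF (0.00376), and NDUFA4L2 was at 1.34 (0.000143).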

How the results depend on the processing

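Counts of called members depended on the processing, given here for wortmannin, then for the high dose against vehicle (HV), then for high against low (HL). With no filter on low counts they were 21 for wortmannin; HV 2 for ZRR, 33 for PT, 12 for SR, 21 for CR and 22 for ZF; HL 17 for ZRR, 10 for ZR, 25 for PT, 6 for SR and 51 for CR; 29 for CR against ZF and 22 for SR against PT. The shares of all genes called were 10.4%; 1.78%, 3.65%, 10.3%, 15.3% and 1.29%; 2.48%, 2.4%, 1.98%, 7.59% and 11.3%; 5.15% and 4.45%, in the same order, and 37.5% of members for HV of PT and 58% for HL of CR. With the length slope as a covariate they were 35 for wortmannin; HV 7 for ZRR, 9 for ZR, 1 for PT, 32 for SR and 40 for CR; HL 2 for ZRR and 26 for SR; 14 for CR against ZF and 10 for SR against PT, beside 38.8%; 9.44%, 12.1%, 1.98%, 33.1% and 45.7%; 8.4% and 31.8%; 18.6% and 19.6% of all genes. With a length offset they were 24 for wortmannin; HV 4 for ZRR, 4 for ZR, 1 for PT, 15 for SR and 28 for CR; HL 3 for ZRR and 10 for SR; 13 for CR against ZF, beside 31.2%; 5.75%, 7.78%, 1.72%, 28% and 39.6%; 5.98% and 25.5%; 14.7% of all genes. With only the compared libraries they were 31 for wortmannin, HV 3 for ZRR, 2 for ZR, 15 for SR and 39 for CR, HL 0 for ZRR, 0 for ZR and 41 for CR, and 0 for CR against ZF, beside 35.1%; 7.02%, 7.52%, 30.4% and 46.9%; 0.745%, 0.416% and 25%; 4.78% of all genes. Without the 5 libraries of lowest slope they were 19 for wortmannin, HV 13 for SR and 21 for CR, HL 0 for ZR and 6 for SR, 0 for CR against ZF and 1 for ZRR against ZR, beside 31.7%; 30.6% and 40.9%; 4.4% and 25.4%; 10.6% and 0.201% of all genes. DESeq2 gave 1 for HV of PT and 6 for CR against ZF, beside 1.93% and 12% of all genes. The cause of these changes was not tested. Leaving out 1 library gave 6 to 10 for wortmannin, HV 0 to 1 for ZRR, ZR and PT, 2 to 4 for SR, 3 to 6 for CR and 0 to 0 for ZF. For HL it gave 0 to 1 for ZRR, 0 to 3 for ZR, 0 to 0 for PT and ZF, 1 to 3 for SR and 5 to 30 for CR, and for the differences 0 to 10 for CR against ZF, 1 to 6 for SR against PT and 0 to 1 for ZRR against ZR. Of 860 values for single called members under the alternatives, 681 kept direction and call, 179 kept direction but lost the call, and 0 reversed.

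Replicate numbers did not pair the samples: in wortmannin against vehicle the correlations of same-numbered deviations were -0.00465, -0.00163 and -0.0415, and in no comparison were all above 0.1. A fit with the number as a block changed no count, with 10 for wortmannin and 23 for high against low CR. Low counts limit NDUFA4L2 and COX6B2, and no close copies could be separated beyond the deposited counting.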
